A study of Caenorhabditis elegans with 34 samples.

Results

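The genes spe-36, spe-49 and spe-51 of Caenorhabditis elegans encode sperm proteins needed at fertilization. They were taken from the probe annotation, with symbols updated by gene ID in a reference gene table. They are 3 of the 5543 named genes on the arrays, and each was measured by 1 of the 13323 probes. In that table (assembly WBcel235) spe-36 and spe-51 lie on chromosome IV and spe-49 lies on chromosome V. The table also has spe-36 overlapping the genes F12F6.1 and F40F11.3, and spe-49 overlapping srn-1. Which stretch of each gene was spotted was not stated, so signal of these gene pairs may not be separable.

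In C. elegans, fertilization takes place inside the hermaphrodite, where sperm wait in the spermatheca for each oocyte to be ovulated. Sperm lacking a spe-9 class protein look normal, move and touch oocytes but do not fertilize them. SPE-49 is a sperm membrane protein predicted to cross the membrane several times, whereas SPE-36 and SPE-51 are secreted by sperm and act there at the time of sperm and egg contact. Hermaphrodites make sperm for a limited period in late larval life and then turn to oocytes for the rest of reproduction.

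RNA was measured on 34 spotted arrays, each carrying a red and a green channel. On 29 arrays, RNA of N2 (wild-type) worms or of glp-4(bn2) worms at the larval stages L2, L3 and L4 or as young adults was set against a reference RNA pool. The labels use glp-4(bn2), a temperature-sensitive allele, as the strain with no germ line; such worms are known to keep a few arrested germ cells. RNA of more than 1 worm batch was pooled for glp-4 L2 replicate 2. On the other 5 arrays RNA of fem-3(q23) worms, in red, was set directly against RNA of fem-1(hc17) worms, in green. From L2 to adults, 3, 4, 4 and 3 arrays were of wild type and 3, 4, 4 and 4 were of glp-4. The gain-of-function allele fem-3(q23) gives a germ line that makes only sperm, and the loss-of-function allele fem-1(hc17) gives one that makes only oocytes. Both fem alleles are temperature sensitive and act at 25 °C, and the soma of both strains is female. The labels give 15 °C as the growth temperature of the fem worms and do not give a shift. For wild type and glp-4 no growth temperature was stated.

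Marker genes were set beside the labels. Their lists were drawn up with results of these arrays known, so the counts are not an independent check of the labels. In adults 6 of 6 general germline genes and 2 of 2 oocyte genes on the arrays were higher in wild type than in glp-4, and 4 of 5 soma genes were lower. Between the fem strains 12 of 13 probes of a sperm list were higher in fem-3. There 2 of 2 oocyte genes and 5 of 6 general germline genes were lower, and 0 of 5 soma genes were called. The gene cpg-22, the only one on the arrays of a list for the oocyte side of fertilization, was not called in either comparison. In adults its difference was -0.89 (wild type minus glp-4, limma adjusted p = 0.0581). In fem-3 over fem-1 it was -0.11 (limma adjusted p = 0.631). Among all probes 39.9% were called in either direction between wild type and glp-4 in adults. Between the fem strains the shares were 34.7% in either direction and 19.2% higher in fem-3. Arrays held 10155 to 13295 values, and array medians as deposited ran from -0.09 to 0.32 on the log2 scale. Labels of some arrays conflict: the details of wild-type L4 replicate 1 speak of L3, those of wild-type L4 replicate 4 of L34, the source name of glp-4 L2 replicate 1 of L3, glp-4 adult replicate 1 is coded T5 and other adults T4, and fem replicate 3 is titled as a repeat of replicate 2. The reference is titled a mixed control on every adult array, REF-vjr on every L2 array, and either of these on L3 and L4 arrays. The sources do not say whether these were the same pool.

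All 3 genes were higher in sperm-making fem-3 worms than in oocyte-making fem-1 worms. The rise was 1.98 for spe-49 and 2.01 for spe-51 on the log2 scale. For spe-36 it was 0.69, and that call was lost under 5 of 11 alternative analyses. The 3 calls stand against a background in which 34.7% of the 13284 probes tested were called in either direction and 19.2% were called higher. Fewer germ cells of a kind and less RNA per cell cannot be told apart in RNA of whole worms.

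On the fem arrays the spe-49 ratio was 1.37, 1.56, 2.34, 2.44 and 2.17 in replicates 1 to 5 (log2, fem-3 over fem-1). Every array was above 1, and replicates 1 and 2 were the lowest. The limma estimate was 1.98 ± 0.20 (SE, n = 5, 95% interval 1.50 to 2.46, adjusted p = 4.82e-04), which is 3.93-fold if the logarithm has base 2. Of all probes, 5.66% had a higher ratio.

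For spe-51 the ratio was 2.36, 1.46, 2.59 and 1.65 in replicates 2 to 5, and replicate 1 had no value. Replicates 2 and 4 were high and replicates 3 and 5 were low, yet the lowest was still well above the array medians. The limma estimate was 2.01 ± 0.24 (SE, n = 4, 95% interval 1.43 to 2.60, adjusted p = 0.00171), or 4.04-fold if the base is 2. Of all probes, 5.61% had a higher ratio.

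For spe-36 the ratio was 1.04, 1.05, 0.11, 0.46 and 0.78 in replicates 1 to 5. All arrays were above 0, but replicate 3 was near 0 and below the median of its own array, 0.32. The limma estimate was 0.69 ± 0.18 (SE, n = 5, 95% interval 0.26 to 1.12, adjusted p = 0.0252), or 1.61-fold if the base is 2, and 18.5% of probes had a higher ratio. The call was lost when arrays were centred on their medians (0.55, adjusted p = 0.0890) and when replicate 1, 2, 4 or 5 was left out (adjusted p = 0.0545, 0.0680, 0.0597 and 0.0859). It was kept without replicate 3, with an estimate of 0.83. Of the genes that overlap spe-36, F40F11.3 had an estimate of 0.68 (adjusted p = 0.0991) and F12F6.1 one of 0.14 (adjusted p = 0.742), and neither was called. Between wild type and glp-4, F40F11.3 differed by -0.07 both at L4 and in adults, and was not called.

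The median of all probes on these arrays was itself 0.16 above 0. Relative to each array's median, spe-49 was 1.84 ± 0.38 (SD, n = 5) and above 0 on 5 of 5 arrays. By the same measure spe-51 was 1.82 ± 0.60 (SD, n = 4), above 0 on 4 of 4. The value of spe-36 was 0.55 ± 0.53 (SD, n = 5), above 0 on 4 of 5. The shares of probes on a single array with a higher ratio ran from 5.40% to 8.45% for spe-49, from 5.05% to 13.8% for spe-51 and from 10.0% to 59.4% for spe-36. Since fem-3 was in red on every array, a dye effect and a strain effect cannot be told apart.

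Within an array the ratio of spe-36 was lower than that of spe-49 on 5 of 5 arrays, by 0.32 to 2.23 (mean difference -1.29 ± 0.85, SD). It was lower than that of spe-51 on 4 of 4 arrays (mean difference -1.42 ± 0.52, SD). No order held between spe-49 and spe-51, whose difference was 0.12 ± 0.74 (SD, n = 4) and below 0 on 2 of 4 arrays. These within-array differences were not tested. Replicates 1 and 2, where spe-49 was lowest, were the arrays where spe-36 was highest.

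**Figure D1:**
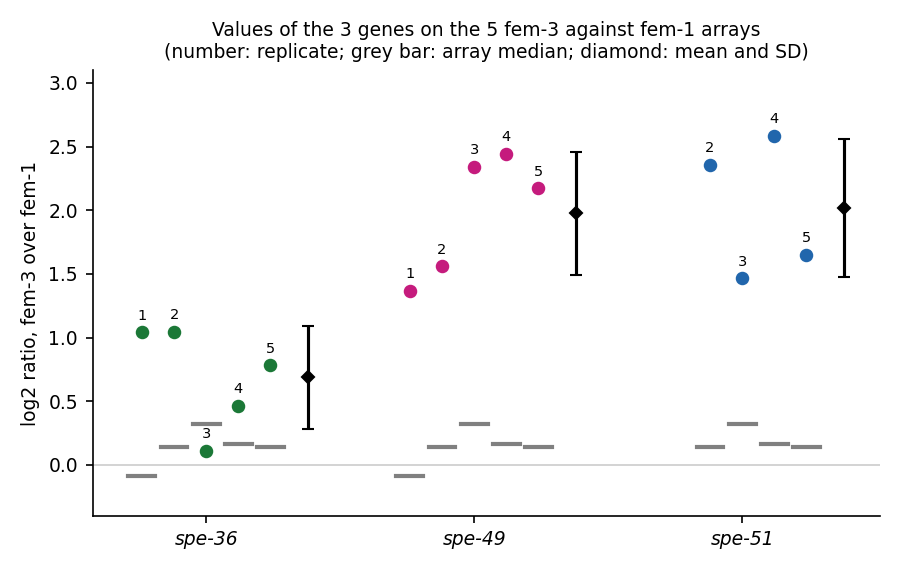
Log2 ratio of fem-3 over fem-1 (vertical axis) for spe-36, spe-49 and spe-51 on each fem array. Numbers are replicates, grey bars are array medians, and the diamond with its bar is the mean and SD. The spe-49 and spe-51 points lie between 1.37 and 2.59, while those of spe-36 lie between 0.11 and 1.05, and replicate 3 falls below its array median.

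Other sperm genes were also higher in fem-3. The organelle gene spe-18, needed for assembly of the fibrous bodies of spermatocytes, was higher in fem-3 by 5.37 ± 0.18 (SE, adjusted p = 4.43e-06). The activation gene spe-43, which acts when spermatids become motile, was higher by 2.38 ± 0.26 (SE, adjusted p = 5.83e-04), close to spe-49 and spe-51. Of the 13 probes of a list of paternal and cytoskeletal sperm genes, 12 were called higher, with a median of 4.00 against 0.16 for all probes. The fertilization list held 12 genes, of which only spe-36, spe-49 and spe-51 were named on the arrays. The activation list had 1 of 14 genes and the organelle list 1 of 16 genes named there. These lists were drawn up with results of these arrays known.

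Comparing wild type with glp-4 at each stage asks which RNAs depend on a germ line. Of the 12 strain differences, 1 was called. It was spe-49 at L4, the larval stage in which hermaphrodites make sperm, where it was higher in wild type by 0.87. The genes spe-36 and spe-51 were not called at any stage. The share of all probes called was 0.419% at L2, 3.23% at L3, 19.9% at L4 and 39.9% in adults.

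At L4 the spe-49 ratio of worm over reference was 1.12, 0.80, 1.55 and 1.04 in wild-type replicates 1 to 4 (log2; mean 1.13 ± 0.31, SD). In glp-4 it was 0.86, -0.57, 0.67 and 0.08 (mean 0.26 ± 0.65, SD). The groups overlapped slightly, since the highest glp-4 array was above the lowest wild-type array, and glp-4 replicate 2 stood lowest. The limma difference was 0.87 ± 0.29 (SE, 95% interval 0.27 to 1.47, adjusted p = 0.0358), or 1.82-fold if the base is 2, and 10.7% of probes had a larger difference. At L4 spe-18 differed by 3.04 ± 0.32 (SE, adjusted p = 2.04e-07), while spe-43 differed by 0.36 ± 0.22 and was not called (SE, adjusted p = 0.283). On the paternal sperm list, 10 of the 11 tested probes were higher in wild type, with a median of 2.42, and 3 of 5 soma genes were lower. The part of soma RNA in these differences was not tested.

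The spe-49 values at L4 moved with the wording of the reference as well as with strain. At L3 and L4 replicates 2 and 4 of both strains had the mixed control, and replicates 1 and 3 had REF-vjr. A shift with wording therefore cannot be told apart from a shift between those replicate numbers. Where the reference was titled a mixed control, wild type had 0.80 and 1.04, and glp-4 had -0.57 and 0.08. Where it was titled REF-vjr, wild type had 1.12 and 1.55, and glp-4 had 0.67 and 0.86. Within either wording the strains did not overlap, which 2 arrays against 2 can easily do by chance. The difference was 1.17 under the mixed control and 0.57 under REF-vjr. With 2 arrays a strain neither was called (limma adjusted p = 0.200 and 0.249), and with the wording as a term in the fit the call was kept (adjusted p = 0.0206). The call was lost without glp-4 replicate 2 (0.59, adjusted p = 0.172), without glp-4 replicate 4 (0.81, adjusted p = 0.0899), without wild-type replicate 1 (0.87, adjusted p = 0.0691) and without wild-type replicate 3 (0.73, adjusted p = 0.109). It was also lost after quantile normalization (0.74, adjusted p = 0.0675), when only the L4 arrays were fitted (0.87, adjusted p = 0.0992) and without both wild-type L4 arrays whose labels conflict (0.92, adjusted p = 0.102).

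For spe-36 at L4, wild type had 0.41, 0.63, 0.07 and -0.02 and glp-4 had -0.02, -0.32, -0.24 and 0.22 in replicates 1 to 4. Wild-type arrays 1 and 2 were the highest, and the groups overlapped. The difference was 0.36 ± 0.24 (SE, 95% interval -0.13 to 0.85, adjusted p = 0.333). For spe-51, wild type had -0.06, -0.87, 0.001 and -0.40 and glp-4 had -0.38, 0.46, -0.17 and -0.67, so that replicates of both strains spread widely and overlapped. Its difference was -0.14 ± 0.22 (SE, 95% interval -0.60 to 0.31, adjusted p = 0.740).

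In adults spe-36 was 0.40, -0.09 and 0.49 in wild-type replicates 2 to 4 and -0.71, -0.14, -0.40 and 0.13 in glp-4 replicates 1 to 4. Wild-type replicate 3 lay among the glp-4 arrays. The difference was 0.54 ± 0.25 (SE, 95% interval 0.02 to 1.07) and missed the threshold after adjustment (adjusted p = 0.0941). It passed without wild-type replicate 3 (0.72, adjusted p = 0.0458) or without glp-4 replicate 4 (0.68, adjusted p = 0.0477).

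Adult spe-51 was 0.26, -0.16 and -0.08 in wild-type replicates 2 to 4 and -0.22, -0.57, -0.46 and -0.33 in glp-4 replicates 1 to 4. All wild-type arrays were above all glp-4 arrays, which 3 arrays against 4 can do by chance, and the closest pair differed little. The difference was 0.40 ± 0.24 (SE, 95% interval -0.09 to 0.89) and was not called (limma adjusted p = 0.189).

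Adult spe-49 was -0.13, 1.06 and -0.40 in wild-type replicates 2 to 4 and -0.03, 0.02, -0.24 and 0.12 in glp-4 replicates 1 to 4. Wild-type replicate 3 stood far above the others, replicate 2 lay within the glp-4 range and replicate 4 lay below it. The difference was 0.21 ± 0.31 (SE, adjusted p = 0.628), and it turned to -0.23 without wild-type replicate 3. That array also had the highest mean over the paternal sperm list of the adult wild-type arrays, 1.62 against 1.20 and 0.70 in replicates 2 and 4. These means cover 11, 11 and 12 of the 13 probes in replicates 2, 3 and 4, so not all the same probes. The mean of replicate 3 over the oocyte genes was the lowest, 0.90 against 1.55 and 1.25. Its mean over the general germline genes was also the lowest, 0.48 against 0.85 and 0.95. On the same array spe-36 (-0.09) and spe-51 (-0.16) had their lowest values of the adult wild-type arrays. The part of these lists in the spe-49 value was not tested.

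Before L4 none of the 6 strain differences was called. At L2 the wild-type values of spe-49 were 0.28, -0.14 and -0.01, and the glp-4 values were -0.20, 0.03 and 0.31. At L3 they were 0.22, 0.63, 0.72 and -0.17 in wild type and 0.05, -0.16, 0.26 and 0.17 in glp-4. The groups overlapped at both stages, and the differences were -0.01 ± 0.33 and 0.27 ± 0.29 (SE).

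The spe-36 values at L2 were -0.71, -0.19 and -0.13 in wild type and -0.68, 0.25 and 0.27 in glp-4. At L3 they were 0.06, -0.22, 0.04 and -0.62 in wild type and 0.02, -0.51, -0.48 and -0.18 in glp-4. At L2 each strain had 1 low array, the groups overlapped at both stages, and the differences were -0.29 ± 0.27 and 0.10 ± 0.24 (SE). For spe-51 the L2 values were -0.26, -0.18 and -0.55 in wild type and -0.22, 0.13 and 0.08 in glp-4. At L3 they were -0.06, 0.13, -0.46 and 0.01 in wild type and 0.01, -0.38, -0.79 and -0.31 in glp-4. The strains overlapped at both stages, and the differences were -0.32 ± 0.25 and 0.28 ± 0.22 (SE).

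**Figure D2:**
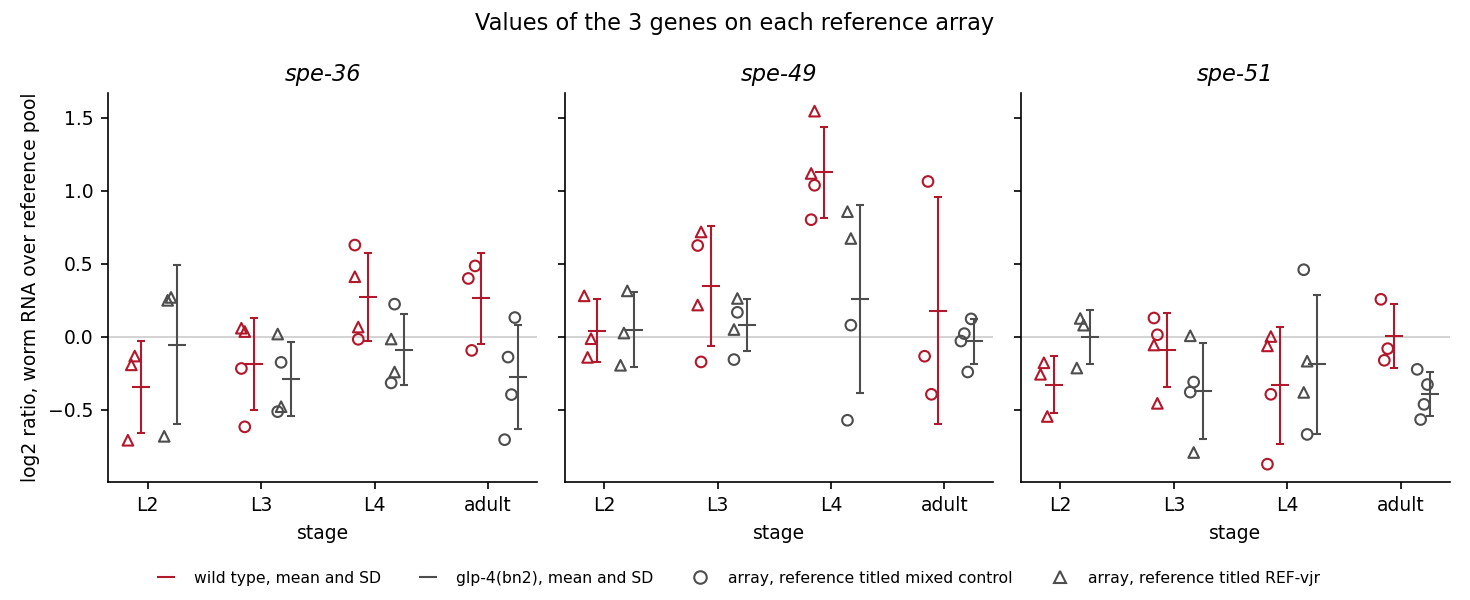
Log2 ratio of worm RNA over the reference pool (vertical axis) for each gene by stage. Symbols are arrays, circles where the reference was titled a mixed control and triangles where it was titled REF-vjr, and bars are the mean and SD of wild type (red) and glp-4 (grey). The 4 wild-type L4 arrays of spe-49 lie between 0.80 and 1.55, the highest group of the 3 genes, and 1 adult wild-type array of spe-49 is at 1.06.

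Steps between stages follow the genes through development. Of the 18 steps, 1 was called: spe-49 in wild type was lower in adults than at L4, by -0.95 ± 0.31 (limma, SE, 95% interval -1.59 to -0.30, adjusted p = 0.0326), where 22.0% of all probes were called. The adult arrays at -0.13 and -0.40 were below every L4 array, and the adult array at 1.06 lay among the L4 arrays of 0.80 to 1.55. Without that adult array the step was -1.39 (adjusted p = 0.00273). The call was lost without adult replicate 2 (-0.79) or 4 (-0.66), without L4 replicate 1 (-0.95), 3 (-0.81) or 4 (-0.98), and when only the mixed control arrays were kept (-0.74, adjusted p = 0.531). The reference of every adult array was titled a mixed control, so stage and wording are partly confounded in this step.

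From L3 to L4 the spe-49 ratio in wild type went from a mean of 0.35 ± 0.41 to 1.13 ± 0.31 (SD, n = 4 each), and every L4 array was above every L3 array. With 4 arrays against 4 such a separation can also arise by chance. The step of 0.78 ± 0.29 (SE, 95% interval 0.18 to 1.38) was not called over all probes (limma adjusted p = 0.116). In this step 7.25% of probes were called, and 11 of 11 tested probes of the paternal sperm list were higher, with a median of 1.87, while spe-43 changed by 0.14 ± 0.22 and was not called (SE, adjusted p = 0.805). The same step of spe-36 was 0.46 ± 0.24 (SE, adjusted p = 0.293), and that of spe-51 was -0.24 ± 0.22 (SE, adjusted p = 0.614). In glp-4 the L3 to L4 steps of the 3 genes were 0.18 to 0.20, and none was called, with 0.367% of all probes called.

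The remaining steps were not called. From L2 to L3 they were 0.16 to 0.31 in wild type, where 0.181% of probes were called, and -0.37 to 0.03 in glp-4, where 10.3% were called. From L4 to adult in glp-4, where 8.04% of probes were called, they were -0.29 to -0.19. In wild type spe-36 changed by -0.01 ± 0.25 and spe-51 by 0.34 ± 0.24 (SE) from L4 to adult.

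Whether the strain difference itself changed between stages was tested as an interaction. None of the 9 tests was called by limma, and none had an unadjusted p below 0.05. For spe-49 the strain difference grew by 0.60 ± 0.41 from L3 to L4 (SE, 95% interval -0.25 to 1.45, adjusted p = 0.737). It then changed by -0.66 ± 0.43 from L4 to adult (SE, 95% interval -1.54 to 0.22, adjusted p = 0.410). The call of spe-49 at L4 and its absence at L3 and in adults are therefore not shown to differ. Of all probes, 0%, 2.63% and 6.58% were called in the 3 interaction tests in stage order, and 795 probes had an unadjusted p below 0.05 in the first.

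Differences between the genes were tested by an exact two-sided permutation test of the per-array difference between a pair of genes, wild type against glp-4. At L4 spe-49 minus spe-51 was 1.46 ± 0.21 in wild type and 0.45 ± 1.01 in glp-4 (SD, n = 4 each). The change of 1.01 had an exact p of 0.0571, or 0.343 adjusted over the 6 tests, and 0.0286 is the smallest p that 4 against 4 arrays allow. The other pairs at L4 changed by -0.51 (spe-36 minus spe-49, exact p = 0.257) and 0.50 (spe-36 minus spe-51, exact p = 0.314). In adults the changes were 0.33, 0.14 and -0.19 for spe-36 minus spe-49, spe-36 minus spe-51 and spe-49 minus spe-51, with exact p of 0.571, 0.629 and 0.857, where 0.0571 is the smallest p possible. Adjusted over the 6 tests the smallest p that these numbers of arrays allow is 0.0571, so no pair could have passed the threshold and the tests do not show whether strain effects among the 3 genes were equal.

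**Figure D3:**
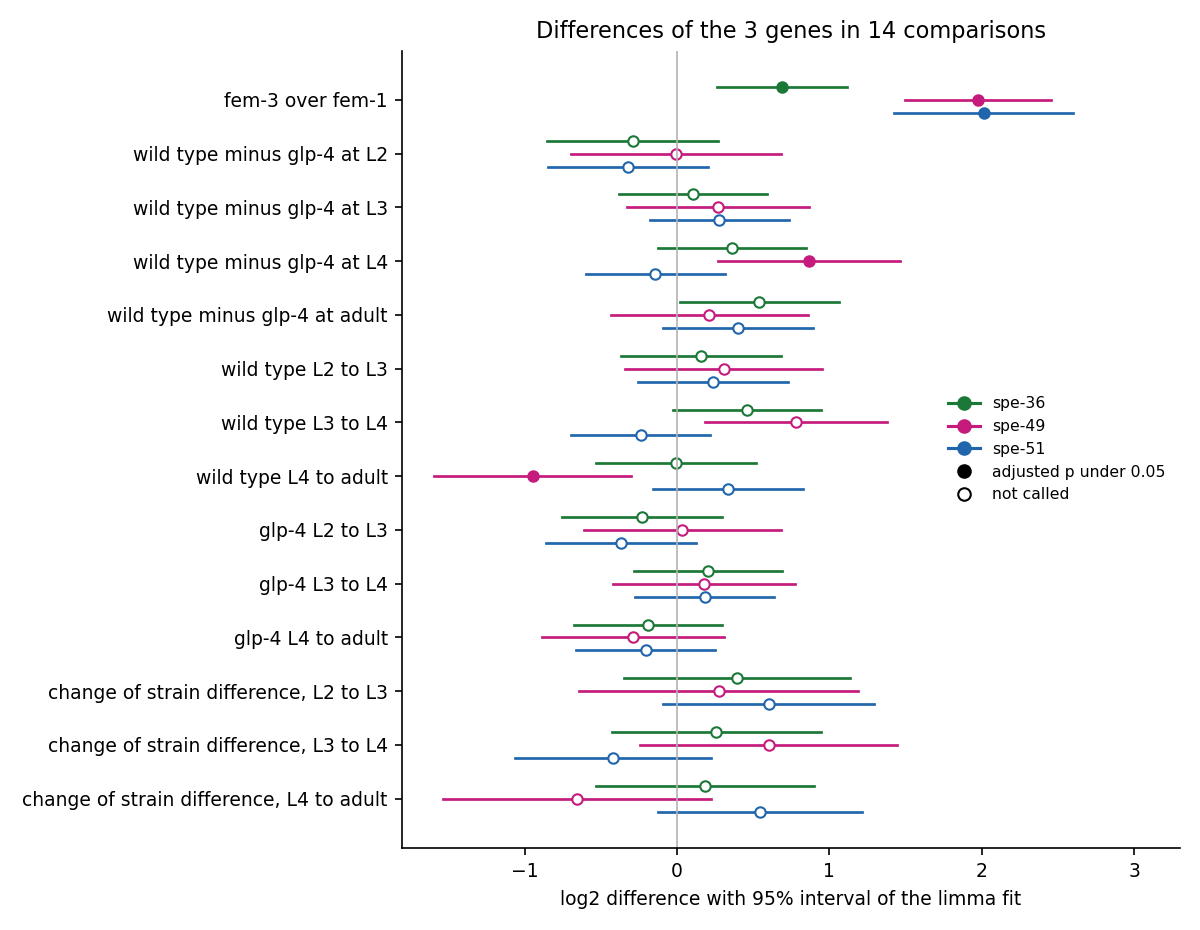
Log2 difference (horizontal axis) with its 95% interval from limma for spe-36, spe-49 and spe-51 in the 14 comparisons. Filled points have an adjusted p under 0.05. The 3 fem points and, for spe-49, wild type minus glp-4 at L4 (0.87) and wild type L4 to adult (-0.95) are the filled ones.

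Over the 8 strain and stage groups the order of the means differed between the genes. For spe-49 wild type at L4 was highest (1.13), followed by wild type at L3 (0.35), glp-4 at L4 (0.26), wild-type adults (0.18), glp-4 at L3 (0.08), glp-4 at L2 (0.05), wild type at L2 (0.04) and glp-4 adults (-0.03). The first step in that order, 0.78, was larger than the larger of the neighbours' SDs, 0.41. None of the other 6 steps was.

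For spe-36 wild type at L4 (0.27) and as adults (0.26) came first, followed by glp-4 at L2 (-0.06), glp-4 at L4 (-0.09), wild type at L3 (-0.19), glp-4 adults (-0.28), glp-4 at L3 (-0.29) and wild type at L2 (-0.35). For spe-51 wild-type adults (0.004) and glp-4 at L2 (-0.004) came first, followed by wild type at L3 (-0.09), glp-4 at L4 (-0.19), wild type at L2 (-0.33), wild type at L4 (-0.33), glp-4 at L3 (-0.37) and glp-4 adults (-0.40). In both genes 0 of 7 neighbouring groups differed by more than the larger SD, and the ranges of all neighbours overlapped. The SD over the 29 arrays was 0.37 for spe-36, 0.52 for spe-49 and 0.31 for spe-51, against a median of 0.46 for the 7445 probes with a value on every array. Thus 28.6%, 60.3% and 15.8% of those probes varied less than spe-36, spe-49 and spe-51.

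The genes whose ratios ran most alike to each of the 3 were found by Pearson's r over the reference arrays, among 785 probes with a gene-class symbol. Each gene named is 1 probe, and other probes of the same gene were ranked apart. The arrays share groups and a reference, so r describes them and is given without a p. For spe-49 the closest were pei-1 (r = 0.768, 25 arrays), a component of germ granules inherited through sperm, the tau-tubulin kinase genes ttbk-4 (0.758) and ttbk-5 (0.707), phyh-1 (0.681) and spe-18 (0.672). For spe-36 they were mdss-1 (0.703), oac-60 (0.678), melo-3 (0.662, 22 arrays), msrp-4 (0.657) and cylc-2 (0.655). Of these, pei-1, ttbk-4, melo-3, msrp-4 and cylc-2 are also on the paternal sperm list. The probes of all 5 genes closest to spe-49 and of all 5 closest to spe-36 were called higher in fem-3 over fem-1. They were higher by 2.14 to 5.37 and by 3.41 to 6.06. Another probe of ttbk-4 had 5.357 there, and another of ttbk-5 had 1.785. Of all 956 probes with a gene-class symbol tested there, 151 (15.8%) were called higher.

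For spe-51 the closest genes reached only r = 0.356 to 0.389: gtnt-35, thum-3, zfyv-19, emg-1 and cest-19. None of these 5 was called in fem-3 over fem-1, where spe-51 itself was higher by 2.01. With Spearman's rho 4, 3 and 3 of the 5 genes named for spe-36, spe-49 and spe-51 stayed among the 5 closest, and over the 8 group means 2, 1 and 0 did. The gene pei-1, closest to spe-49 by Pearson's r, ranked 14 by Spearman's rho (0.522) and 11 over the group means. Among themselves the genes were little alike, with r = 0.299 between spe-36 and spe-49, 0.033 between spe-36 and spe-51 and -0.157 between spe-49 and spe-51 over 29 arrays.

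**Figure D4:**
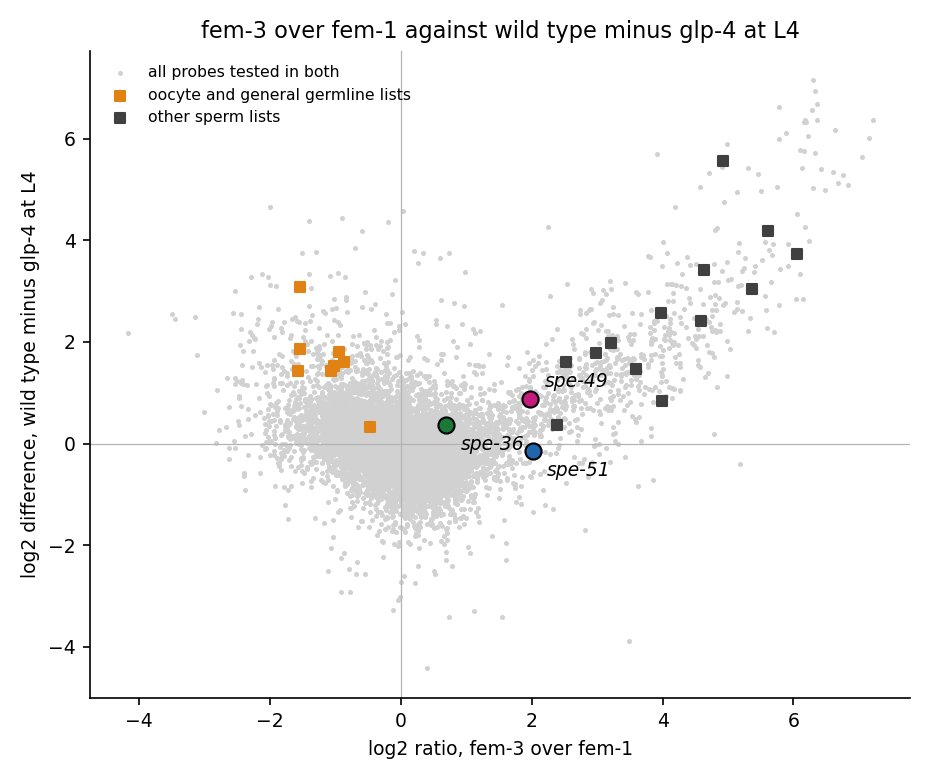
Log2 ratio of fem-3 over fem-1 (horizontal axis) against the log2 difference of wild type minus glp-4 at L4 (vertical axis), 1 grey point per probe tested in both. Squares are list genes of sperm (dark) and of oocytes and the general germ line (orange). The spe-49 point (1.98, 0.87) and the spe-51 point (2.01, -0.14) share a position on the horizontal axis only, and spe-36 is at 0.69 and 0.36.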

How the data were processed

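The authors deposited 1 normalized log ratio of red over green per probe and array, taken here as log2. The sources used here do not give its base, the normalization or the spot filter, and folds are valid only for base 2. Scanning was done with GenePix, per the labels, except that fem replicate 1 was scanned with ScanAlyze and reconstructed, so that only its ratios are valid. Signs of the 29 reference arrays were turned to read worm over reference, and values were not scaled further. No column belonged to other samples.

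All 13323 probes were fitted with limma 3.58.1 (R 4.3.3). Reference arrays entered the fit as 8 group means (prior degrees of freedom 2.4), and the 5 fem arrays as a mean against 0 (prior degrees of freedom 2.95). A probe was tested with at least 2 values per group, or 3 on the fem arrays. Tests were two-sided, with Benjamini-Hochberg adjustment over all probes tested in a comparison and a threshold of 0.05. A gene is said to be called, higher or lower where it passed. The fits were tested on simulated data.

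The genes and the lists were chosen with earlier results of these data known. Named were spe-36, spe-49 and spe-51 and the members of 3 sperm lists with a probe. For likeness the 5 probes of gene-class symbols with the highest r over at least 20 shared arrays were named. Names came from the platform annotation, which named 5582 probes, and 5559 matched the reference table by gene ID.

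The labels number worm batches, so p-values of the reference arrays rest on the spread between arrays of different batches, pooled over the groups. That spread is not of batches alone. At L3 and L4 it also holds any difference between the reference wordings, since the main fit had no term for wording. For spe-49 in glp-4 at L4 the mean was -0.247 under the mixed control and 0.765 under REF-vjr. Whether a number means a shared batch across groups is not given. Deviations from the group means of same-numbered arrays had r from -0.274 to 0.473 over 35 pairs, and in 0 of 10 comparisons was every pair over 0.1, so the numbers were not taken as pairs. For the fem arrays no worm batches are given. Precision is limited by how many arrays each group has, and spot intensities were not used. Alternatives were scaling, blocks, reference wording, filters, a robust prior and leaving out arrays.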

Additional observations from a re-analysis of the deposited data

How the results depend on the processing

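Of the 48 results on the 3 genes 5 were called, and 3 of these calls were lost under 23 of their 46 alternatives: spe-36 in the fem comparison under 5 of 11, spe-49 at L4 under 9 of 19 and the wild-type spe-49 step from L4 to adult under 9 of 16. Over all 48 results, 43 of them not called, 708 of 758 alternative values kept their direction and their side of the threshold. The 48 include the 6 tests between pairs of genes, which could not pass the threshold, so their side of it was fixed in advance. The fem-3 over fem-1 calls of spe-49 (1.84 to 2.13) and spe-51 (1.82 to 2.20) were kept under every alternative run. With the batch number as a replicate block, which the labels do not show to pair arrays (16 of 35 same-numbered pairs correlated best with each other), no call of the 3 genes changed: spe-49 at L4 was 0.87 (adjusted p = 0.0191) and its wild-type step from L4 to adult was -0.92 (adjusted p = 0.0225).

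Calls lost were spe-36 in fem-3 over fem-1 with arrays centred on their medians (0.55), spe-49 at L4 after quantile normalization (0.74), with only the compared arrays (0.87), within the mixed control (1.17) or REF-vjr wording (0.57) and without both wild-type L4 arrays of conflicting labels (0.92), and the wild-type spe-49 step from L4 to adult after quantile normalization (-0.76), with only the compared arrays (-0.95), with the shared wording (-0.74) and without those L4 arrays (-0.996). Leaving out the conflicting arrays, fem replicates 1 and 3 together, or all but the wording shared by all 4 groups was chosen after seeing the data. Signs turned, with no call, for spe-49 at L2 after quantile normalization (0.006), spe-36 at L3 (-0.073, mixed control), spe-51 at L4 (0.24, REF-vjr), spe-36 from L4 to adult in wild type when centred (0.051) and spe-49 from L4 to adult in glp-4 with the shared wording (0.22).

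Leaving out 1 array at a time gave these ranges where a sign or call changed. They were 0.60 to 0.83 for spe-36 in the fem comparison, 0.59 to 1.07 for spe-49 at L4, -0.302 to 0.074 for spe-51 at L4 and -0.13 to 0.13 for spe-49 at L2. In adults they were 0.40 to 0.72 for spe-36 and -0.23 to 0.50 for spe-49. In wild type the spe-49 step from L4 to adult ranged from -1.39 to -0.66, that of spe-36 from -0.12 to 0.17, and the spe-36 step from L2 to L3 from -0.023 to 0.304. In glp-4 spe-49 ranged from -0.089 to 0.166 (L2 to L3) and -0.021 to 0.456 (L3 to L4), and spe-51 from -0.037 to 0.339 (L3 to L4) and -0.366 to 0.011 (L4 to adult). The adult pair differences ranged from -0.067 to 0.952 (spe-36 minus spe-49), -0.059 to 0.255 (spe-36 minus spe-51) and -0.715 to 0.093 (spe-49 minus spe-51).

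Over all alternatives the count of all probes called ranged from 0 to 299 at L2 (43 as reported), 0 to 449 at L3 (359), 0 to 2379 at L4 (2235), 3051 to 4749 in adults (4544) and 2903 to 5002 for the fem strains (4613). Over the wild-type steps it ranged from 0 to 85, 268 to 990 and 0 to 2920 in stage order (19, 806 and 2472 as reported), over the glp-4 steps from 0 to 1248, 20 to 49 and 80 to 1037 (1080, 41 and 911), and over the interactions from 0 to 80, 186 to 485 and 0 to 1121 (0, 288 and 727). The cause of these changes was not tested. The number of arrays, and a reference whose wording goes with stage, limit these results.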
